A study of Mus musculus with 6 samples.

Results

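Cells sense interferons through a short relay of receptors, kinases and transcription factors, and 9 of its genes were followed here in mouse dendritic cells: the receptor chains Ifngr1, Ifngr2, Ifnar1 and Ifnar2, the kinases Jak1, Jak2 and Tyk2, and the transcription factors Stat2 and Stat3. They were chosen by name, and each matched 1 of the 36706 genes in the deposited tables. The cells were grown from bone marrow of wild-type (WT) mice with 20 ng/mL GM-CSF, a cytokine that turns marrow precursors into dendritic cells and macrophages, with fresh medium on day 3 and day 5. All of them received interferon gamma (IFN-γ). The 3 libraries of the IFN-γ group had no further treatment, and the 3 of the IFN-γ+4-OI group came from cells also given 4-octyl itaconate (4-OI), a cell-permeable form of the metabolite itaconate. Cells without IFN-γ are not analysed here, so every comparison is of 4-OI on top of IFN-γ. Doses, treatment times, animals and batches are absent from the labels, and the titles read BMDMs (bone marrow-derived macrophages) where the cell type label and the protocol name dendritic cells. No label says that replicates came from separate cultures, so a p-value here speaks only of the spread among libraries, which may be technical.

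IFN-γ binds a receptor of IFNGR1 and IFNGR2 chains, to which the kinases JAK1 and JAK2 are attached, and the activated STAT dimer binds gamma-activated sites (GAS) in DNA. Type I interferons bind IFNAR1 and IFNAR2, which carry TYK2 and JAK1, and there STAT2 joins a partner STAT and IRF9 to form a complex that binds interferon-stimulated response elements (ISRE). STAT3 is the main factor downstream of interleukin 6 and interleukin 10, whose receptors also use JAK1 and TYK2, and in myeloid cells it is known for restraining inflammation. Several genes of the relay, Stat2 among them, are themselves induced by interferon.

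With 4-OI the relay did not move as a block. Stat2 and Jak2 fell most, with changes of -53.7% and -46.3%. Ifnar1, Tyk2 and Ifngr1 fell less, Stat3 rose, and Ifngr2, Ifnar2 and Jak1 did not pass the test. By edgeR's quasi-likelihood test with a Benjamini-Hochberg adjusted p under 0.05, 5 of the 9 genes fell and 1 rose, where 25.4% and 22.7% of all 14011 tested genes did. Together 6 of 9 were called, beside 48.1% of all tested genes, and with background shares of this size the count is no sign that these genes stand apart. The median log2 fold change of the 9 was -0.25, against -0.01 over all tested genes. Their median absolute log2 fold change was 0.36, against 0.39. The 10 most counted genes of a library took 7.37% to 8.59% of its counts with IFN-γ and 15.1% to 16.9% with IFN-γ+4-OI. The factors for composition (TMM) were 1.07 to 1.13 with IFN-γ and 0.861 to 0.945 with IFN-γ+4-OI. Libraries scaled by total counts alone, without these factors, shift every log2 fold change down. The median of all genes is then -0.27, with 1719 genes higher and 5452 lower in place of 3181 and 3555, and of the 9 genes 5 fell and 0 rose.

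Levels are given as CPM, counts scaled to library size with TMM factors. Total counts were 19656368 to 29244717 per library. IFN-γ replicate 1 and IFN-γ+4-OI replicate 3 stood apart from the other libraries of their groups. Genes with at least 4000 exon bases took 43.2%, 34.2% and 35.3% of the counts in IFN-γ replicates 1 to 3. In IFN-γ+4-OI replicates 1 to 3 they took 32.4%, 32.1% and 28.6%, so this share also differed between groups without overlap. Of the 9 genes, 7 are that long, and the part of gene length in the differences between libraries and between groups was not tested. Without both libraries 5 of the 9 fell and 2 rose, where 4695 and 4601 of all 14086 tested genes did. Both were left out for standing apart in these same data, so the p-values of that fit understate the spread. In RNA from whole cultures, fewer cells of a type and less RNA per cell cannot be told apart. Markers of dendritic cells were present in both groups, though unevenly. Itgax, which encodes CD11c, was at 477 to 571 CPM with IFN-γ and 204 to 221 CPM with IFN-γ+4-OI. Zbtb46, a transcription factor of classical dendritic cells, had a mean of 15.5 and 11.4 CPM, and Flt3 16.2 and 10.0 CPM. Cd209a had 0 to 3 counts in a library. The macrophage marker Adgre1 stood above Itgax, at means of 875 and 1334 CPM. Of 12 tested dendritic cell markers 10 fell, and their summed level, with the untested Cd209a, was 6022 to 7216 CPM with IFN-γ and 4756 to 5664 CPM with IFN-γ+4-OI. Most of this sum came from Cd74, H2-Ab1 and H2-Eb1, so it mainly follows these genes. Their means were 3009, 1305 and 1083 CPM with IFN-γ and 2667, 893 and 636 CPM with IFN-γ+4-OI. Of 9 monocyte markers 7 fell, with sums of 1917 to 2461 and 960.1 to 1073 CPM. Of 11 macrophage markers 3 rose (Adgre1, Csf1r and Cd14) and 2 fell, with sums of 2964 to 3116 and 4202 to 4272 CPM, though Csf1r did not pass with total counts alone (edgeR adjusted p = 0.673) or without IFN-γ replicate 2 or 3 or IFN-γ+4-OI replicate 1 or 2 (edgeR adjusted p = 0.0813, 0.0813, 0.101 and 0.107). Of 11 neutrophil markers 7 fell and 2 rose (sums of 1675 to 2400.3 and 1995.5 to 2725 CPM), and all 5 tested mast cell and basophil markers fell (149.6 to 171 and 49.0 to 57.3 CPM). Markers of lymphocytes were near the floor, with sums of 9.14 to 13.3 and 5.54 to 6.88 CPM for T and NK cells (2 of 3 tested fell) and 9.81 to 10.5 and 7.81 to 9.05 CPM for B cells (0 of 5). Of 3 tested markers of plasmacytoid dendritic cells 1 rose and 1 fell, and 1 listed marker had no count. Beside these counts, 25.4% of all tested genes fell and 22.7% rose. The part of the marker shifts in the changes below was not tested.

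**Figure D1:**
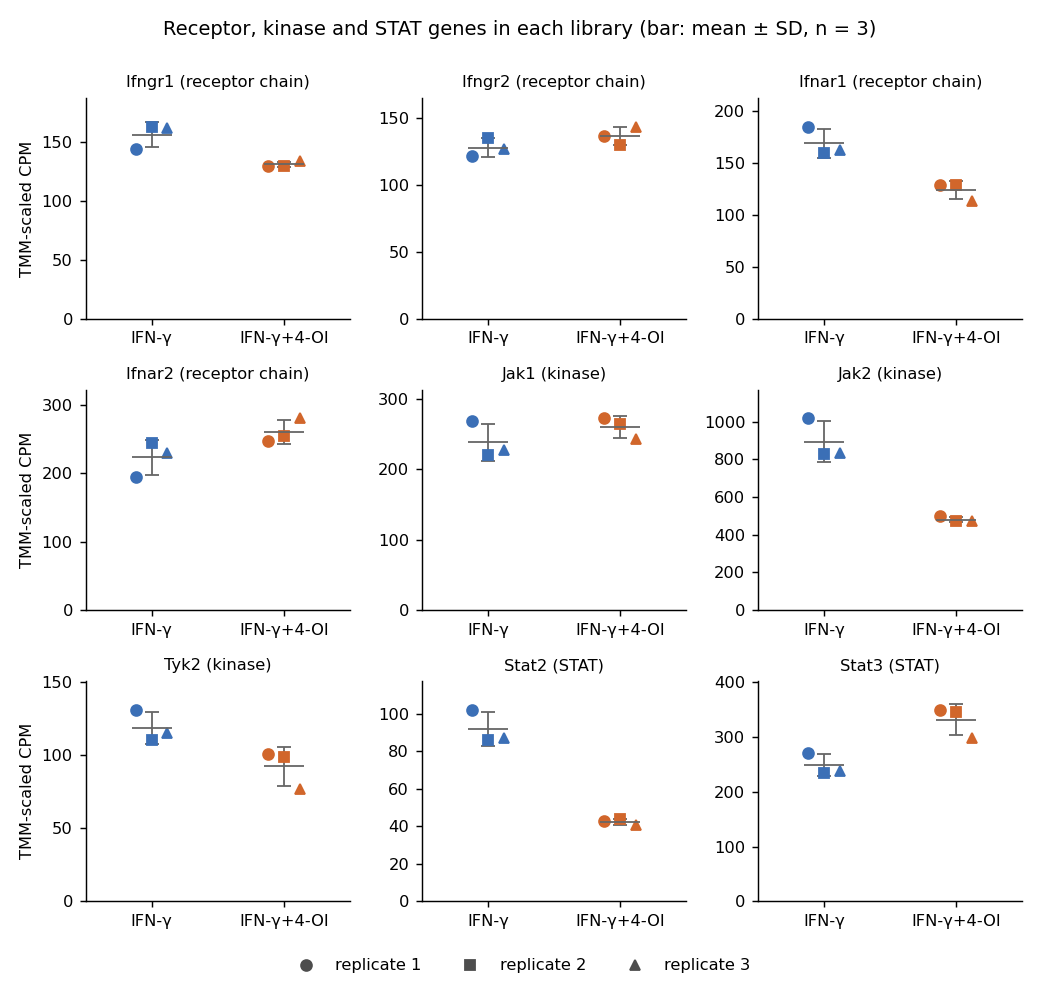
Level of the 9 genes in each of the 6 libraries, as TMM-scaled CPM on a linear axis from 0; symbols mark the replicate, and bars the mean ± SD of 3 libraries. Jak2 and Stat2 show the widest gaps between groups, and the groups overlap for Ifngr2 and Jak1.

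The receptor chains were compared first. Ifngr1 encodes the ligand-binding chain of the IFN-γ receptor. It stood at 144, 163 and 162 CPM in IFN-γ replicates 1 to 3 and at 129.9, 129.8 and 134 CPM in those with 4-OI. Every library with 4-OI lay below every library without it, by a narrow margin to IFN-γ replicate 1. The log2 fold change was -0.25 ± 0.08 (SE; edgeR adjusted p = 0.0315). The call was lost without the filter on low counts (edgeR adjusted p = 0.112). It was also lost without IFN-γ replicate 2 or 3 and without IFN-γ+4-OI replicate 1, 2 or 3 (edgeR adjusted p = 0.128, 0.151, 0.118, 0.118 and 0.0619).

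Ifngr2 encodes the second chain, which brings JAK2 to the receptor. It was measured at 122, 135 and 127 CPM with IFN-γ and at 136, 129.8 and 143 CPM with IFN-γ+4-OI, and the groups overlapped. Its log2 fold change of 0.09 ± 0.08 did not pass (edgeR adjusted p = 0.376) and was -0.17 with total counts alone.

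Ifnar1 encodes a signalling chain of the type I interferon receptor, the one TYK2 binds. The libraries held 184, 159 and 162 CPM with IFN-γ and 129, 129 and 113 CPM with IFN-γ+4-OI. The groups lay well apart, with IFN-γ replicate 1 highest and IFN-γ+4-OI replicate 3 lowest. Ifnar1 fell by 0.45 ± 0.09 on the log2 scale (edgeR adjusted p = 0.00555), the only receptor chain of the 4 whose call held in all 15 alternative settings.

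Ifnar2 encodes the other chain, with which JAK1 associates. It stood at 195, 245 and 230.1 CPM with IFN-γ and at 247, 255 and 281 CPM with IFN-γ+4-OI. The lowest library with 4-OI lay barely above the highest without it, and IFN-γ replicate 1 was the low one. The log2 fold change was 0.22 ± 0.11 (edgeR adjusted p = 0.123), and -0.037 with total counts alone. It was 0.13 without IFN-γ replicate 1, and 0.077 with IFN-γ+4-OI replicate 3 left out as well. Without overlap between groups in CPM were 7 of the 9 genes, Ifnar2 among them, and 59.5% of all tested genes.

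Of these receptor genes, 3 are neighbours. In the deposited coordinates, whose assembly is taken up in the processing notes, Ifnar2 (chromosome 16, 91166517 to 91202477), Ifnar1 (91281016 to 91307411) and Ifngr2 (91343947 to 91360895) lie on the plus strand within 194.4 kb. Il10rb, a chain shared by the receptors of interleukin 10 and type III interferons, sits between the first and the second, at 91202851 to 91222722. The 4 genes of this cluster did not change alike: Ifnar1 fell, Il10rb rose from 87.3 ± 7.48 to 111 ± 7.75 CPM (log2 fold change 0.34; edgeR adjusted p = 0.0191), and the other two did not pass. Il10rb did not pass with total counts alone (0.085; edgeR adjusted p = 0.433) or without IFN-γ+4-OI replicate 3 (0.29; edgeR adjusted p = 0.0623), and its TPM overlapped between groups, with means of 84.8 and 82.6. Ifngr1 lies apart, on chromosome 10 at 19467697 to 19485977, plus strand.

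The promoters of Ifnar1 and Ifnar2 are shown because each holds a match to the GAS letters, and the first fell while the second did not pass. RefSeq's GRCm38.p6 table gave a promoter of 300 bases for each of the 9 genes, from 250 bases before the start site it uses to 50 after. TTCNNNGAA, which reads the same on both strands, occurred in 2 of the 9 and in 8.30% of all 32851 promoters of that length. In the stretches below, 5′ to 3′ on the plus strand, capitals mark the match. The Ifnar1 stretch runs from base -96 to base 4 (chr16:91485119-91485218) and the Ifnar2 stretch starts at base -250 (chr16:91372533-91372632), counted from that start site as base 1 with no base 0.
Ifnar1: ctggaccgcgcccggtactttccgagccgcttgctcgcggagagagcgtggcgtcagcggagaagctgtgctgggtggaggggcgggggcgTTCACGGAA
Ifnar2: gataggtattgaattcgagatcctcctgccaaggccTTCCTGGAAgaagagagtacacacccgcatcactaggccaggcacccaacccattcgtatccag
The Ifnar1 match spans the start site, from base -5 to base 4, and the Ifnar2 match lies at bases -214 to -206. A match in letters is a description and not a measured binding site.

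Among the kinases, the change fell unevenly. Jak1 encodes the kinase that both interferon receptors use. It was read at 269, 219.6 and 227 CPM with IFN-γ and at 272, 265 and 243 CPM with IFN-γ+4-OI. The groups overlapped, because IFN-γ replicate 1 was as high as the libraries with 4-OI. The log2 fold change was 0.12 ± 0.10 (edgeR adjusted p = 0.351). Without IFN-γ replicate 1 it was 0.21 and passed (edgeR adjusted p = 0.0330). With IFN-γ+4-OI replicate 3 left out as well it was 0.27 (edgeR adjusted p = 2.69e-06), and with total counts alone it was -0.13. The libraries left out were picked for standing apart in these same data, so these smaller p-values understate the spread.

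Jak2 encodes the kinase of the IFN-γ receptor's second chain and of the GM-CSF receptor. It was the most counted of the 9 genes, with 1019, 830.2 and 834 CPM with IFN-γ and 498, 471 and 473 CPM with IFN-γ+4-OI. The lowest library without 4-OI exceeded the highest with it by a wide margin, and the replicates with 4-OI were nearly level. Jak2 fell by 0.90 ± 0.11 on the log2 scale, or 1.86-fold (edgeR adjusted p = 3.08e-04), and its log2 fold change was -1.16 to -0.78 over the 15 alternatives. An RNA gene on the opposite strand, Gm41829, shares 4.69% of the exon bases of Jak2 and was lower too, at 2.17 to 2.45 CPM with IFN-γ and 0.362 to 0.412 CPM with IFN-γ+4-OI. Its part in the Jak2 counts was not tested.

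Tyk2 encodes the kinase of IFNAR1. It stood at 131, 110.3 and 115 CPM with IFN-γ and at 101, 98.8 and 77.2 CPM with IFN-γ+4-OI. The groups did not overlap, but their nearest libraries were close and IFN-γ+4-OI replicate 3 was well below the rest. The log2 fold change was -0.36 ± 0.12 (edgeR adjusted p = 0.0418). The call did not hold without IFN-γ replicate 1 or 3 and without IFN-γ+4-OI replicate 1, 2 or 3 (edgeR adjusted p = 0.0502, 0.0843, 0.0541, 0.0742 and 0.106). With IFN-γ replicate 1 and IFN-γ+4-OI replicate 3 both left out the log2 fold change was -0.17 (edgeR adjusted p = 0.00103), a p-value that understates the spread for the same reason as for Jak1.

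Jak1 lies on chromosome 4 at 101009171 to 101122493, minus strand, Jak2 on chromosome 19 at 29229006 to 29290495, plus strand, and Tyk2 on chromosome 9 at 21015364 to 21042689, minus strand. The 250 bases before the start of Jak2, the kinase that fell most, are shown in the stretch from base -250 to base -1 (chr19:29251553-29251802, GRCm38.p6, plus strand), where neither GAS nor ISRE letters occurred and 80.8% of the bases are G or C, so nothing is in capitals.
Jak2: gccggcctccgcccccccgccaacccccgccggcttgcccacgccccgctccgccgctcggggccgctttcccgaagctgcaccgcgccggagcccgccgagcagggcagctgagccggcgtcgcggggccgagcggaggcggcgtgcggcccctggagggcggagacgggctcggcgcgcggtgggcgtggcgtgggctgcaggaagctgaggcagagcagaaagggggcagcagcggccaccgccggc

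The pair of STAT genes moved in opposite directions. Stat2, whose product acts in the type I interferon complex, stood at 102, 86.2 and 87.0 CPM with IFN-γ and at 43.0, 43.7 and 40.6 CPM with IFN-γ+4-OI. All libraries with 4-OI lay below all without it, and those with 4-OI were close together. Stat2 fell 2.16-fold (log2 fold change -1.11 ± 0.10, SE; edgeR adjusted p = 5.35e-05), with log2 fold changes of -1.37 to -0.996 over the 15 alternatives and a call in each. Of all tested genes, 9.88% had a lower log2 fold change. Stat2 lies on chromosome 10 at 128106367 to 128128722, plus strand, and shares 4.92% of its exon bases with Apof on the same strand. Apof stood at 0.594 to 0.989 CPM with IFN-γ and 0.217 to 0.434 CPM with IFN-γ+4-OI.

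The Stat2 promoter is shown because it was the only promoter of the 9 with ISRE letters. The letters searched were GAAA, any 2 bases and GAAA again, on both strands, and they occurred in 3.44% of all promoters. The stretch runs from base -250 to base -1 (chr10:128270248-128270497, GRCm38.p6, plus strand), and the capitals, at bases -222 to -213, mark the match, which reads on the minus strand.
Stat2: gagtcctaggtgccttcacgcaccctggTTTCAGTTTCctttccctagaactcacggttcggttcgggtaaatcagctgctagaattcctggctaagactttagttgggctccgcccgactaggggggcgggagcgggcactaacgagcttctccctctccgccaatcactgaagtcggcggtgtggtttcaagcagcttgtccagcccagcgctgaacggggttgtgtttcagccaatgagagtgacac
TGANNNNGC, the core of the antioxidant response element that NRF2 binds, was searched the same way and occurred in 4 of the 9 promoters, those of Ifngr1, Jak2, Tyk2 and Stat3, and in 41.3% of all promoters.

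Stat3 stood at 271, 235 and 239 CPM with IFN-γ and at 350.2, 347 and 299 CPM with IFN-γ+4-OI. The lowest library with 4-OI was above the highest without it. Stat3 rose 1.34-fold (log2 fold change 0.42 ± 0.10, SE; edgeR adjusted p = 0.00990). With total counts alone the log2 fold change was 0.16 and did not pass (edgeR adjusted p = 0.303). Stat3 lies on chromosome 11 at 100777632 to 100830447, minus strand, next to Stat5a and Stat5b in a stretch of 158.9 kb. Stat5a fell from 118 ± 4.30 to 66.2 ± 0.722 CPM and Stat5b from 122 ± 8.27 to 97.5 ± 9.40 CPM (edgeR adjusted p = 6.34e-05 and 0.0265), against the direction of their neighbour. Stat5b did not pass without IFN-γ replicate 3 or without IFN-γ+4-OI replicate 1, 2 or 3 (edgeR adjusted p = 0.0704, 0.0580, 0.0530 and 0.0776).

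**Figure D2:**
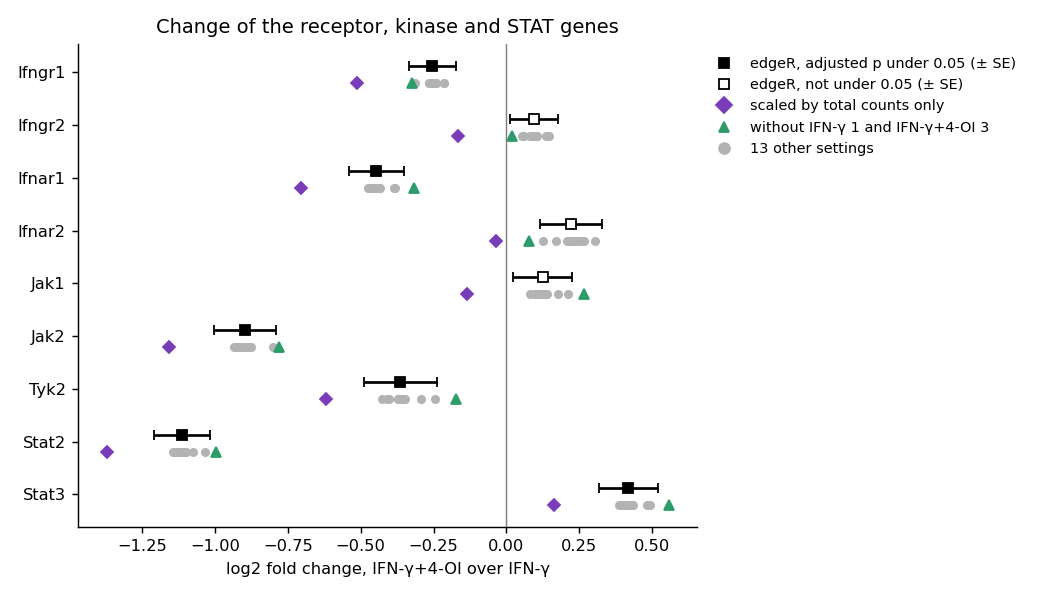
Log2 fold change of each gene, IFN-γ+4-OI over IFN-γ, with its SE (squares, filled where the edgeR adjusted p was under 0.05), and below it the values of 15 alternative settings. Scaling by total counts (diamonds) moves all 9 genes left by a similar step, which takes Ifngr2, Ifnar2 and Jak1 below 0 while Stat2 and Jak2 stay the lowest.

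Levels of different genes can be compared only per length, for which the deposited TPM serve. TPM are transcript counts divided by gene length and scaled to the same sum in each library. These are not TMM-scaled, and they divide by all exon bases of a gene, which runs from 2105 for Ifngr2 to 10935 for Jak2, so genes with long or rarely used exons appear lower. With IFN-γ, Jak2 (191 ± 46.2 TPM) and Ifngr1 (170.5 ± 7.83 TPM) led, followed by Ifngr2 (140.1 ± 10.1 TPM), Stat3 (126 ± 25.2 TPM), Jak1 (92.1 ± 21.3 TPM) and Ifnar2 (76.8 ± 1.12 TPM). Tyk2 (52.8 ± 11.2 TPM), Ifnar1 (48.4 ± 9.78 TPM) and Stat2 (47.8 ± 10.4 TPM) were lowest (SD, n = 3). Only the steps from Ifngr1 to Ifngr2 and from Ifnar2 to Tyk2 were between genes whose libraries did not overlap. Stat3 lay above Jak1 and Tyk2 above Ifnar1 within each of the 3 libraries, though their ranges overlapped. The order of the other neighbours is not settled.

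With IFN-γ+4-OI the order was Stat3 (128 ± 21.8 TPM), Ifngr2 (115 ± 6.16 TPM), Ifngr1 (109.9 ± 7.94 TPM), Jak2 (77.8 ± 8.27 TPM), Jak1 (76.4 ± 11.0 TPM), Ifnar2 (68.9 ± 2.15 TPM), Tyk2 (31.5 TPM, 23.4 to 35.9), Ifnar1 (27.1 ± 4.29 TPM) and Stat2 (16.8 ± 2.11 TPM). Jak2 lay below Ifngr1 here, with libraries that overlapped those of Jak1. Its first place with IFN-γ rested on replicate 1, since in the other two libraries it was just below Ifngr1. Stat2 lay below Ifnar1 without overlap. Libraries overlapped between neighbours except at the steps from Ifngr1 to Jak2, from Ifnar2 to Tyk2 and from Ifnar1 to Stat2. Between the scales 3 genes differed. Ifnar2, whose libraries with 4-OI lay above the others in CPM, lay below them in TPM without overlap, at 76.7, 78.0 and 75.7 TPM with IFN-γ and 68.8, 71.1 and 66.8 TPM with IFN-γ+4-OI. Ifngr2 overlapped in CPM and was lower without overlap in TPM, at 132 to 151 against 108 to 120.5 TPM. For Stat3, in TPM its groups overlapped, with 155, 109 and 114 TPM in the IFN-γ libraries against 142, 141 and 103 TPM in those with 4-OI.

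**Figure D3:**
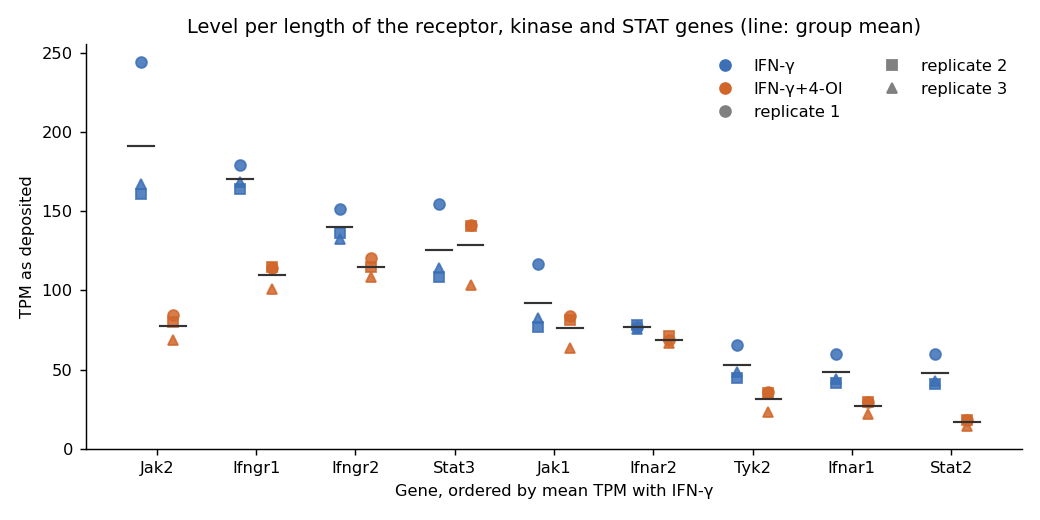
Deposited TPM of the 9 genes by library, ordered by the mean with IFN-γ; symbols mark the replicate and lines the group means. Jak2 lies near Ifngr1 with IFN-γ and near Jak1 with IFN-γ+4-OI, and IFN-γ replicate 1 is the highest library of its group for 8 of the 9 genes.

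Ratios of 2 genes within a library do not depend on how libraries are scaled to each other, and 9 pairs were compared. The TPM of Jak1 was 0.477, 0.479 and 0.493 times that of Jak2 with IFN-γ and 0.990, 1.02 and 0.929 times with IFN-γ+4-OI. The kinases thus went from unequal to near equal TPM, a 2.03-fold shift of the ratio. Whether their levels were near equal depends on the lengths divided by, 10935 exon bases for Jak2 and 6041 for Jak1. In CPM with IFN-γ+4-OI, Jak2 stood at a mean of 480 and Jak1 at 260. Stat2 stood at 0.386, 0.377 and 0.375 times Stat3 with IFN-γ and at 0.126, 0.129 and 0.139 times with IFN-γ+4-OI. This ratio was 2.88-fold lower with 4-OI, the largest shift of the 9, and its replicates were close in both groups.

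Within the IFN-γ receptor, Ifngr1 was 1.182, 1.201 and 1.274 times Ifngr2 with IFN-γ and 0.949, 0.997 and 0.931 times with IFN-γ+4-OI. Within the type I receptor, Ifnar1 was 0.777, 0.534 and 0.581 times Ifnar2 with IFN-γ and 0.430, 0.417 and 0.332 times with IFN-γ+4-OI. In each receptor 1 chain was thus lower relative to the other with 4-OI in every library, by 1.27-fold and 1.59-fold. Between receptors, the ratios of Ifngr1 to Ifnar1 (3.00, 3.93 and 3.83 against 3.86, 3.87 and 4.54) and of Ifngr2 to Ifnar2 (1.97, 1.75 and 1.75 against 1.75, 1.62 and 1.62) overlapped between groups. The differences between groups in log2 ratio were 0.19 and -0.13, and for the log2 ratio Ifngr1/Ifnar1 -0.0058 without IFN-γ replicate 1 and IFN-γ+4-OI replicate 3.

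Jak2 was 3.72, 3.61 and 3.47 times Tyk2 with IFN-γ and 2.36, 2.28 and 2.93 times with IFN-γ+4-OI, and Jak1 went from 1.74 to 2.45 times Tyk2 in the geometric mean. Ifngr1 went from 2.22 to 1.59 times Ifnar2. The 7 pairs other than Ifngr1 to Ifnar1 and Ifngr2 to Ifnar2 did not overlap between groups. An exact two-sided permutation test of 3 against 3 libraries cannot give a p below 0.1, which each of these 7 reached (adjusted p = 0.129 over the 9 pairs), while the other two had exact p = 0.4 and 0.3. This test can therefore pass no ratio at 0.05 with these numbers of libraries, and the shifts are given as descriptions.

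**Figure D4:**
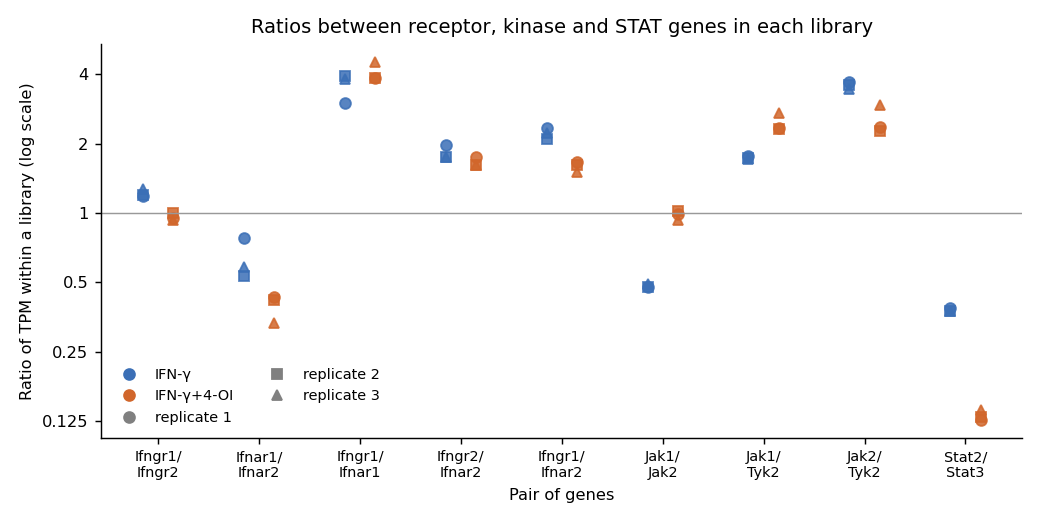
Ratio of the TPM of 2 genes in each library, on a log axis, for the 9 pairs; the grey line marks equal levels per length. Jak1/Jak2 moves from about 0.483 to 0.978 and Stat2/Stat3 from 0.379 to 0.132 (geometric means), with replicates close together.

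The rest of the pathway was taken from lists by role. Of 19 interferon ligand genes none passed the filter on low counts: 15 had no count in any library, and all together had 12 counts over the 3 IFN-γ libraries and 14 over the 3 with 4-OI. A gene with no count may stand at up to 0.103 to 0.153 CPM, which is what 3 counts amount to in these libraries. Ifng had 3 and 1 counts and Ifnb1 1 and 0, so differences between groups were not detectable at this depth. The IFN-γ given to the cells is protein and is not measured here.

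Of 5 other JAK and STAT genes 4 fell and none rose, where 25.4% of all tested genes fell and 22.7% rose. The median log2 fold change of the 5 was -0.68. Jak3, the kinase of the common gamma chain of cytokine receptors, fell from 37.2 ± 6.38 to 15.3 ± 2.57 CPM (edgeR adjusted p = 4.21e-04). Stat4, which acts downstream of interleukin 12, fell 1.60-fold and Stat5a, which acts downstream of GM-CSF, 1.78-fold (edgeR adjusted p = 2.31e-04 and 6.34e-05). Stat6, the factor of interleukin 4, stood at 218 ± 7.21 and 221 ± 12.3 CPM and did not pass (edgeR adjusted p = 0.850).

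Of 16 tested chains of other receptors that signal through JAK1, JAK2 or TYK2, 10 fell and 1, Il10rb, rose. Over all tested genes the shares were 25.4% and 22.7%, and the median log2 fold change of the 16 was -0.47. Il12rb2, a chain of the interleukin 12 receptor, was 3.48-fold lower with 4-OI, at 31.6 ± 1.54 CPM against 110.0 ± 23.5 CPM (edgeR adjusted p = 4.83e-05). Csf3r, the receptor of G-CSF and a marker of neutrophils, fell 2.34-fold, and Il10ra, the ligand-binding chain for interleukin 10, 1.86-fold (edgeR adjusted p = 1.24e-04 and 1.65e-04). Of the 2 chains of the interleukin 10 receptor, Il10ra thus fell while the rise of Il10rb depended on the scaling, as given above.

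Among genes of negative regulators the test called 7 of 16, all lower, and the median was -0.14. Over all tested genes 48.1% were called and 25.4% were lower, so being called is no mark of this list. The 7 were Socs1, Socs2, Socs3, Cish, Ptpn6, Usp18 and Sh2b3. Socs3, an inhibitor of receptor-bound JAK kinases, was 2.83-fold lower, at 98.4 to 101 CPM with IFN-γ+4-OI against 260.5 to 301 CPM with IFN-γ (edgeR adjusted p = 7.23e-06), Cish 2.15-fold and Socs2 1.75-fold lower (edgeR adjusted p = 2.09e-05 and 1.17e-04). With total counts alone 11 of the 16 were called.

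Of 8 partners and coactivators of STATs 3 fell, 0 rose, and the median was -0.19, a count close to the 25.4% of all tested genes that fell and below the 48.1% called. Irf9, the partner of STAT2, fell from 59.2 ± 3.56 to 29.1 ± 0.496 CPM, 2.03-fold (edgeR adjusted p = 3.81e-05), beside 2.16-fold for Stat2. Nmi and Med14 fell 1.45-fold and 1.40-fold (edgeR adjusted p = 0.0114 and 0.0285). Nmi did not pass without IFN-γ+4-OI replicate 2 (edgeR adjusted p = 0.0530), and Med14 did not without IFN-γ+4-OI replicate 1, 2 or 3 (edgeR adjusted p = 0.0681, 0.108 and 0.0664). The count called was 5 without IFN-γ replicate 1, 1 without IFN-γ+4-OI replicate 2, and 7 without IFN-γ replicate 1 and IFN-γ+4-OI replicate 3 together.

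Genes known to be induced by interferon were lower in most cases. Of 20 genes induced by IFN-γ 18 fell, 0 rose and the median was -0.91. Among 23 that type I interferon stimulates, 20 fell, 0 rose and the median was -2.08. Over all tested genes 25.4% fell and 22.7% rose. Gbp4, Gbp5 and Gbp6, whose products attack the vacuoles of intracellular microbes, were 5.59-fold, 4.32-fold and 5.45-fold lower (edgeR adjusted p = 5.42e-06, 2.31e-06 and 2.17e-06). In the type I list Oas2, a sensor of double-stranded RNA, was 8.83-fold lower, Xaf1, which promotes cell death, 5.52-fold, and Zbp1, a sensor of Z-form nucleic acids, 5.32-fold (edgeR adjusted p = 3.20e-06, 2.70e-06 and 3.59e-06). Irf9 stands in this list as well as among the partners of STATs, and Usp18 in this list as well as among the negative regulators. Socs1 is both a negative regulator and a gene of the IFN-γ list. Of the genes induced through STAT3 below, Socs3 also stands among the negative regulators and Il4ra among the other receptor chains. Monocyte markers fell beside both lists, as given above, and their part was not tested.

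Of 15 tested genes known to be induced through STAT3, 9 fell and 2 rose, and the median was -0.27, beside the higher Stat3. The shares over all tested genes were 25.4% and 22.7%. The 2 that rose were the survival factor Mcl1 (edgeR adjusted p = 0.0430) and Hif1a, a factor of the hypoxia response (edgeR adjusted p = 0.00752), by 23.5% and 33.7%. With total counts alone neither passed (log2 fold changes 0.045 and 0.16; edgeR adjusted p = 0.669 and 0.236). Mcl1 also did not pass with upper quartile factors, without the filter, or without IFN-γ replicate 2 or 3 or IFN-γ+4-OI replicate 1, 2 or 3 (edgeR adjusted p = 0.0733, 0.0820, 0.0664, 0.0847, 0.0836, 0.0915 and 0.119). Myc, a driver of cell growth, was 5.40-fold lower with 4-OI and Bcl2l1, which encodes the survival factor BCL-XL, 1.82-fold (edgeR adjusted p = 2.31e-06 and 1.53e-04). Many of these genes answer to other factors too, and the part of STAT3 in them was not measured.

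**Figure D5:**
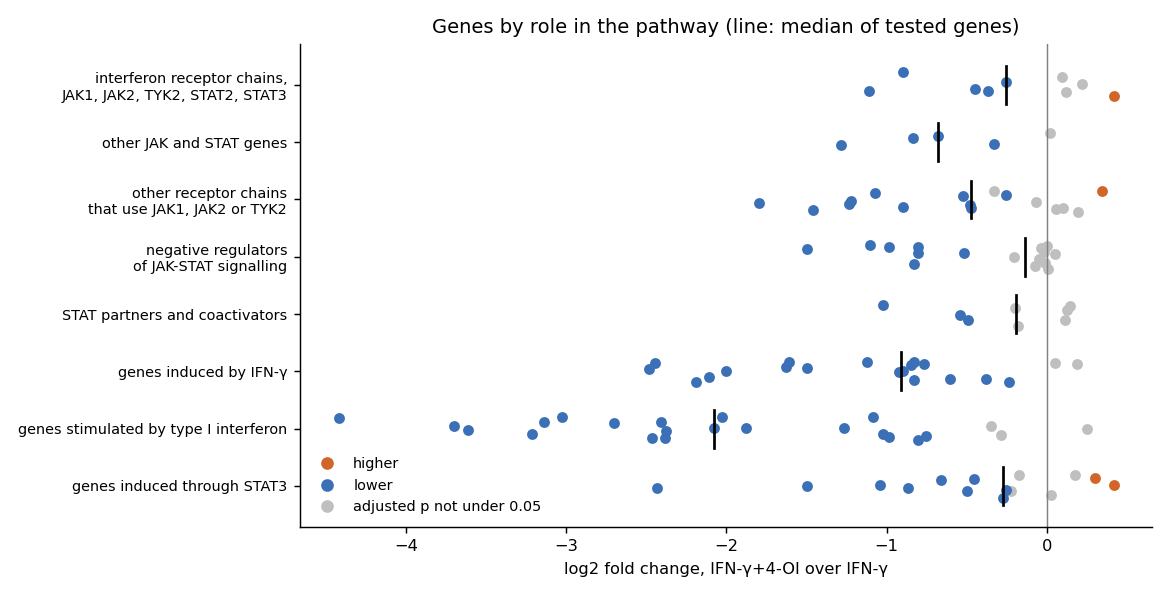
Log2 fold change, IFN-γ+4-OI over IFN-γ, of every tested gene by role, coloured by the edgeR call; vertical lines are medians. The medians run from -0.14 for negative regulators to -2.08 for genes stimulated by type I interferon, and the 9 receptor, kinase and STAT genes at the top spread on both sides of 0.

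Likeness of pattern was measured as Pearson's r of log2 CPM over the 6 libraries, against 8669 tested genes with a mean of at least 10 CPM. Nearest to Stat2, which had the smallest adjusted p, were Furin, Sema4c and Lcp1, with r of 0.9999, 0.9998 and 0.9995. Furin encodes a proprotein-cleaving enzyme and went from 615, 482 and 497 to 173, 175 and 161 CPM, so IFN-γ replicate 1 was highest for it as for Stat2. Nearest to Ifngr1, which had the highest mean TPM, were Lcn2, Psmb10 and Shkbp1, with r of 0.9992, 0.9988 and 0.9983. For each of them IFN-γ replicate 1 was the lowest library without 4-OI, as for Ifngr1. The libraries form 2 groups and share their scaling, and 1007 genes had an r above 0.95 with Stat2 and 445 with Ifngr1, so these values describe the libraries and no more.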

How the data were processed

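Messenger RNA of 6 samples was sequenced with a stranded kit, per the labels' protocols. The authors deposited a table per sample with counts and TPM for 36706 genes. The deposited counts are whole numbers and entered the tests unchanged. Recomputing the deposited TPM from counts and exon lengths gave 100% of values back (relative tolerance 1e-06). HISAT2 and mm10 are named in the submitters' processing notes. Which program counted reads, with which strand setting and gene models, is not given in the sources used here. Of the 9 genes 0 shared a start or an end with RefSeq's GRCm38.p6 table, while 4 had the same span, so gene coordinates are printed as deposited, on an assembly that may not be mm10. Promoters come from RefSeq on GRCm38.p6. Reads that overlapping genes may share were not measured.

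Genes with enough counts (filterByExpr, minimum count 10) were tested with edgeR 4.0.16 in R 4.3.3, with TMM factors and the robust quasi-likelihood test, over all 14011 tested genes, and Benjamini-Hochberg adjusted p-values were called under 0.05. Fold changes and SE are those of the fit. Alternatives were RLE factors, upper quartile factors, total counts alone, no filter, a filter of 1 CPM in 3 libraries, limma 3.58.1 (voom), DESeq2 1.42.0 and fits blocked by replicate number, without each library in turn, and without the 2 libraries that stood apart; counts of genes also at an adjusted p of 0.01. Ratios were compared with an exact permutation test. The edgeR test was also run on simulated counts with 200 changed genes, against 6736 called here, so that run cannot support these calls. Total counts of 19656368 to 29244717 put 3 counts at 0.103 to 0.153 CPM, which covers counting error only. No replicates agreed within sampling noise (lowest chi-square per gene 4.07).

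The genes and lists were chosen with earlier results of these data known. Named are the 9 genes, the 3 members of each list with the smallest adjusted p (1 if none passed) and the genes most alike in pattern; neighbours, overlapping genes, list members named to complete a count or a complex, and some markers were chosen after their values were seen. Other genes of the family and pathway are not reported here.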

Additional observations from a re-analysis of the deposited data

How the results depend on the processing

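Directions of all 9 genes held in the 15 alternatives, except with total counts alone, where Ifngr2, Ifnar2 and Jak1 turned to -0.17, -0.037 and -0.13 and Stat3, at 0.16, no longer passed. The calls of Ifnar1, Jak2 and Stat2 held in all 15. Ifngr1 lost its call without the filter on low counts (-0.24). Without single libraries its log2 fold change was -0.31 to -0.21, that of Tyk2 -0.43 to -0.24 and that of Jak1 0.081 to 0.21. Without IFN-γ replicate 1 and IFN-γ+4-OI replicate 3, Ifngr1 was -0.32, Jak1 was 0.27 and passed, and the log2 ratio Ifngr1/Ifnar1 turned to -0.0058. That fit drops libraries for standing apart in these same data, so its p-values understate the spread. Stat6, which did not pass, turned to -0.24 with total counts alone and was -0.00075 to 0.071 without single libraries and 0.094 without both.

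Of the 9 genes, 0 were higher with total counts alone and 2 without both libraries. The count higher was 1 to 2 and the count lower 3 to 4 without single libraries, and 3 were lower at an adjusted p of 0.01. The count of all tested genes higher was 1719 and of all tested genes lower 5452 with total counts alone, a share of higher calls of 24.0% against 47.2%, and all tested genes higher were 2079 at an adjusted p of 0.01. Negative regulators called were 11 with total counts alone. STAT partners called were 1 to 5 without single libraries and 7 without both.

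The replicate numbers are not stated to pair samples. Same-numbered libraries deviated from their group means with correlations of 0.26, -0.10 and 0.19, and IFN-γ replicate 2 went most closely with IFN-γ+4-OI replicate 3 (0.31). With the replicate block 6 of the 9 genes were called, and all tested genes called were 7513, and no call among the 9 changed. The exact permutation test of the ratios cannot go below 0.1 in any of these settings.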
